A study of Mus musculus with 48 samples.

Results

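The genes described here handle the amino acid arginine and the nitric oxide made from it. They were chosen by name, with earlier results of these data known: 8 genes of the 18782 in the table are described, and all 8 were measured and entered the tests. Nos1, Nos2 and Nos3 encode the nitric oxide synthases, Slc7a2 an arginine transporter, Ass1 and Asl the pair of enzymes that remake arginine from citrulline, Odc1 the enzyme that starts polyamine synthesis and Ddah1 an enzyme that removes methylarginines.

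Bulk RNA-seq was done on the thoracic aortas of 48 wild-type C57BL/6J mice that entered the experiment at 3 weeks of age, with 1 library for each mouse. Control males (MaCon, n = 10) and control females (FeCon, n = 10) drank normal water. The other mice drank water with 0.4% β-aminopropionitrile (BAPN), which blocks lysyl oxidase and with it the cross-linking of elastin and collagen fibres, for 28 days. They were grouped afterwards by what the aorta showed: no visible lesion in MaNonAD (n = 4) and FeNonAD (n = 8), and a dissection or aneurysm in MaAAD (n = 7) and FeAAD (n = 9). The lesion groups were therefore not assigned at random and hold only mice alive at day 28. Males and females were housed apart, so sex and housing cannot be told apart. Aortas were flushed with saline and the lesioned segments were taken whole, so fewer cells of a type and less RNA per cell cannot be told apart in any value here.

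Arginine is a shared substrate. It can be split into urea and ornithine, and ornithine feeds polyamines through ornithine decarboxylase and proline, an abundant amino acid of collagen, through other enzymes. Nitric oxide synthases turn arginine into citrulline and nitric oxide, which relaxes arterial smooth muscle when made by the endothelial enzyme Nos3 and is made in large amounts by the inducible enzyme Nos2 of stimulated macrophages. Methylated arginines released from proteins inhibit these synthases until dimethylarginine dimethylaminohydrolase breaks them down.

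Library totals ran from 13548003 to 17281262 counts, with a median of 15681333.5, and levels are counts scaled to library size (CPM), with sizes adjusted between libraries by TMM. Differences are log2 fold changes with approximate standard errors (SE) from edgeR's quasi-likelihood test, with Benjamini-Hochberg adjusted p over the 14431 genes tested. Differentially expressed genes (DEGs) passed an adjusted p of 0.05 with a log2 fold change of 1 or more in size. The label of the tissue was checked with 8 smooth muscle markers, whose summed level was 31650 to 69640 CPM over the controls of both sexes. Libraries FeAAD5, FeAAD9 and MaAAD7 stood apart in neutrophil markers, with sums of 1157, 269.5 and 405.2 CPM over 8 genes against 7.947 to 20.21 in the 20 controls. FeNonAD8 stood apart from the other FeNonAD aortas in fibroblast markers, at 22750 CPM over 7 genes, and in macrophage markers, at 861.8 CPM over 10 genes. Results that rest on these 4 libraries are given with and without them, an alternative chosen after seeing the data. FeAAD2 stood apart in red cell markers, at 26920 CPM over 5 genes against 143.3 to 1397 in the controls, and these 5 were DEGs, higher, in FeAAD against FeCon and against FeNonAD. It was kept in that alternative, and with it alone left out the same number of members, 1, was called in each of these comparisons. MaNonAD4 had the next highest red cell sum, 5178 CPM, and FeNonAD6 had a neutrophil sum of 40.29 CPM against 8.919 to 14.2 in the other FeNonAD aortas.

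The promoters of Ass1, Odc1 and Ddah1 are shown because these 3 genes had higher RNA in the lesioned aortas of both sexes, as described further on, and their sequences let the reader set the promoters beside each other. RefSeq gave a promoter for 4 of the 8 members, and the window shown is the 250 bases before the gene start on build GRCm38.p6, plus strand, written 5′ to 3′. Ass1 is at chr2:31470020-31470269, Odc1 at chr12:17544623-17544872 and Ddah1 at chr3:145758442-145758691. Capitals mark matches to GGGCGG (the GC box) or CACGTG (the E-box) on either strand.
Ass1: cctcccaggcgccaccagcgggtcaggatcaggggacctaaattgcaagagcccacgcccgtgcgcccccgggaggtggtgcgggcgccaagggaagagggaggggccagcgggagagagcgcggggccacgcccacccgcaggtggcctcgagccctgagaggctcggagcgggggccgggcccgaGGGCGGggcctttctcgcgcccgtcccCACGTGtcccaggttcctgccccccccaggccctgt
Odc1: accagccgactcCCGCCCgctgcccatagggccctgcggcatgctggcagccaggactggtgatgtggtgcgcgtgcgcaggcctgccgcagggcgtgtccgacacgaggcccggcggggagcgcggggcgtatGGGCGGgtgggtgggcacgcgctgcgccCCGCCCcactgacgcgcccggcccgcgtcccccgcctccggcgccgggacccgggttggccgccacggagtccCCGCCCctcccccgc
Ddah1: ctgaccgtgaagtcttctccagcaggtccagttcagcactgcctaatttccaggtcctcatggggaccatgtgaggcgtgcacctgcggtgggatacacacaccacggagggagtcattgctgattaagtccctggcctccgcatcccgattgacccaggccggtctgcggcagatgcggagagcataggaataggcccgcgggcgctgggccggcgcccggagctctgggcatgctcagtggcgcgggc
The Odc1 window held 4 GC boxes, starting 238, 116, 88 and 15 bases before the gene start, and 80.0% of its bases were G or C. The Ass1 window held 1 GC box and 1 E-box, starting 63 and 36 bases before the start, in a window of 75.6% G or C. None of the motifs searched was found in the Ddah1 window, of which 64.0% was G or C against a median of 52.4% over 32851 promoters. On both strands, GGGCGG was present in 32.7% of those promoters and CACGTG in 6.02%, while TATAAA was in 12.4%, TGACTCA in 4.46% and TGACGTCA in 1.55%. A match is a description of the letters and not a site of binding.

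Per kilobase of exon, Odc1 and Nos3 were the most abundant members in control aortas. In FeCon the mean level was 27.9 CPM per kb for Odc1, 17.35 for Nos3, 6.77 for Ass1, 5.18 for Slc7a2 and 4.36 for Asl. The remaining members were far lower in FeCon, at 0.3175 CPM per kb for Ddah1, 0.271 for Nos2 and 0.0534 for Nos1. Odc1 was above Nos3, Nos3 above Nos2 and Nos2 above Nos1 per kb in every one of the 48 libraries. Ddah1 lay above Nos2 per kb in 6 of 10 FeCon and 5 of 10 MaCon libraries, in 5 of 8 FeNonAD and 4 of 4 MaNonAD libraries, and in 9 of 9 FeAAD and 7 of 7 MaAAD libraries. The order of Odc1 and the 3 synthases was thus the same in every group, and Ddah1 lay above Nos2 in every lesioned aorta. Ddah2, its paralog in the methylarginine list, averaged 59.4 CPM in FeCon, 55.54 in FeAAD, 72.45 in MaCon and 58.44 in MaAAD. Ddah1 averaged 1.265, 19.54, 1.33 and 14.38 CPM in the same groups. By adjusted p Ddah2 did not pass in AAD against Con in either sex.

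**Figure D1:**
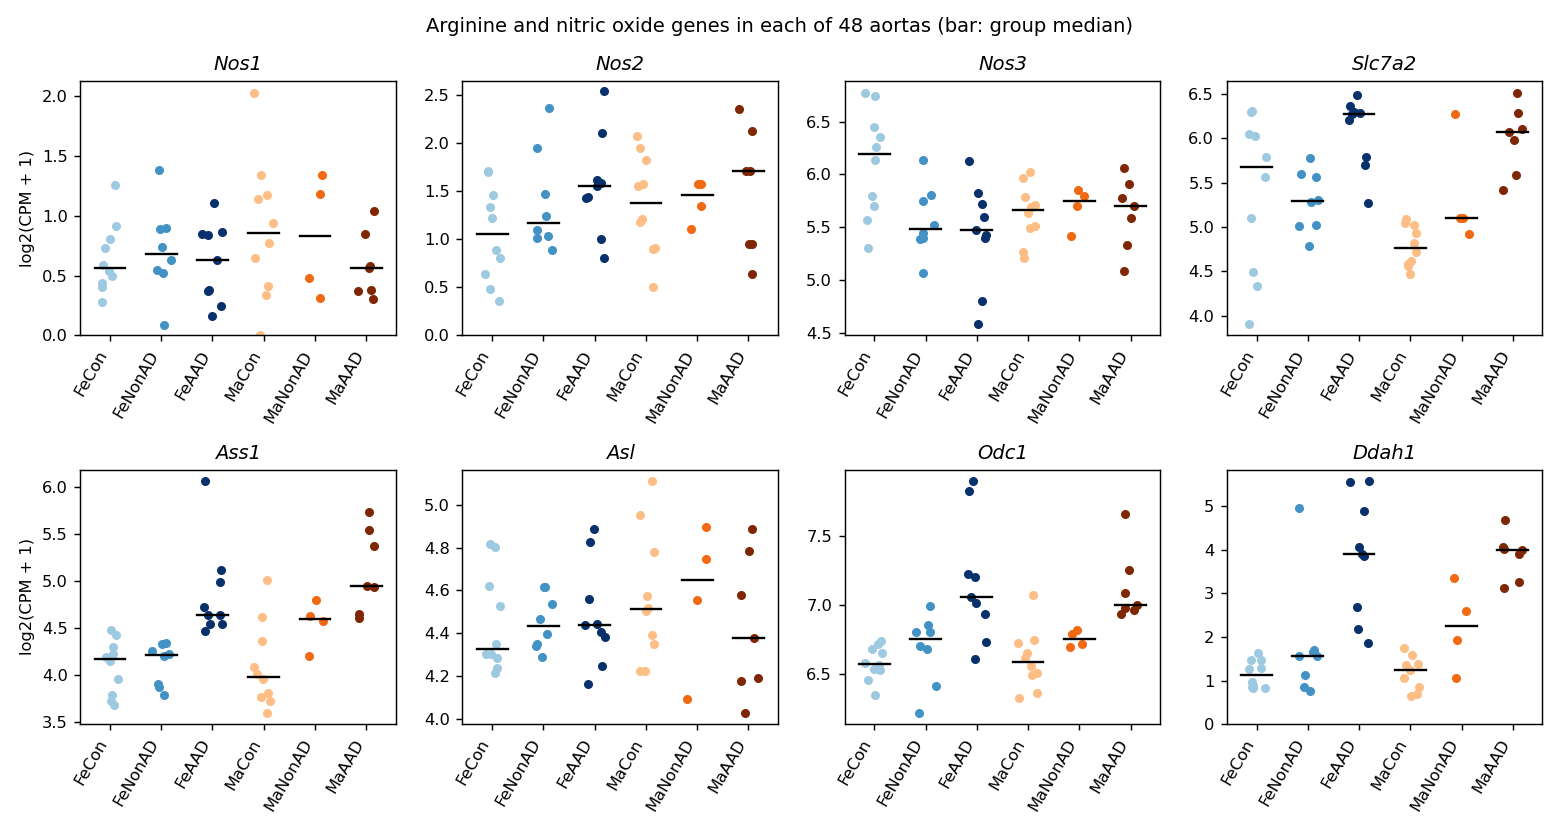
Level of each of the 8 genes as log2(CPM + 1) in the 48 aortas, 1 point per library, by group; the bar is the group median. Ddah1 of every lesioned aorta lies above every control of the same sex, Odc1 reaches 237.9 CPM in FeAAD, and Asl group means stay between 20.9 and 23.3 CPM.

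Ddah1, Ass1 and Odc1 were higher in the lesioned aortas of both sexes, and against the controls Slc7a2 also rose in males and Nos3 fell in females. Between FeAAD and FeCon, 1 of 8 members was a DEG (Ddah1, higher), where 12.7% of all genes tested were DEGs and 9.94% were DEGs that were higher. By adjusted p alone 4 members passed, with Ass1 and Odc1 higher and Nos3 lower, where 44.4% of all genes passed. Both female counts were thus near the share of all genes. Between MaAAD and MaCon, 3 of 8 members were DEGs, all higher (Slc7a2, Ass1 and Ddah1), against 11.4% of all genes and 9.18% that were higher. By adjusted p alone 4 passed, with Odc1 as well, against 35% of all genes. The median log2 fold change of the members was 0.59 in females and 0.39 in males, and that of all genes tested was 0.00 and −0.03. Between FeAAD and FeNonAD, 1 member was a DEG (Ddah1, higher), against 7.04% of all genes and 6.79% that were higher, a call that was lost with only these groups in the fit (Ddah1 adjusted p = 0.121). By adjusted p alone 4 passed there, with Slc7a2, Ass1 and Odc1 as well, against 18.2% of all genes. Between MaAAD and MaNonAD edgeR and DESeq2 each called 0 members as DEGs, against 0.353% of all genes (51, all higher) by edgeR, and 3 had an unadjusted p under 0.05. With DESeq2's size factors in edgeR, 165 genes were higher and 3 lower there, with 0 members among them. With the 4 libraries that stood apart left out, 1 member was a DEG in FeAAD against FeCon, 3 in MaAAD against MaCon, 1 in FeAAD against FeNonAD and 0 in MaAAD against MaNonAD.

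Without a visible lesion, few members differed from controls. Between FeNonAD and FeCon, 1 of 8 members was a DEG (Ddah1, higher), where 2.75% of all genes were DEGs and 1.67% were higher, and Nos3 was lower by adjusted p alone, where 14.5% of all genes passed. Between MaNonAD and MaCon, edgeR called 0 of 8 members, DESeq2 also called 0 and 2 members had an unadjusted p under 0.05, where 0.478% of all genes were DEGs. With those 4 libraries left out, 0 members were DEGs in FeNonAD and 1 in MaNonAD (Ddah1) against the controls, although none of the 4 is a MaNonAD or MaCon library. The comparisons with Con share their control libraries, as do those with AAD.

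**Figure D2:**
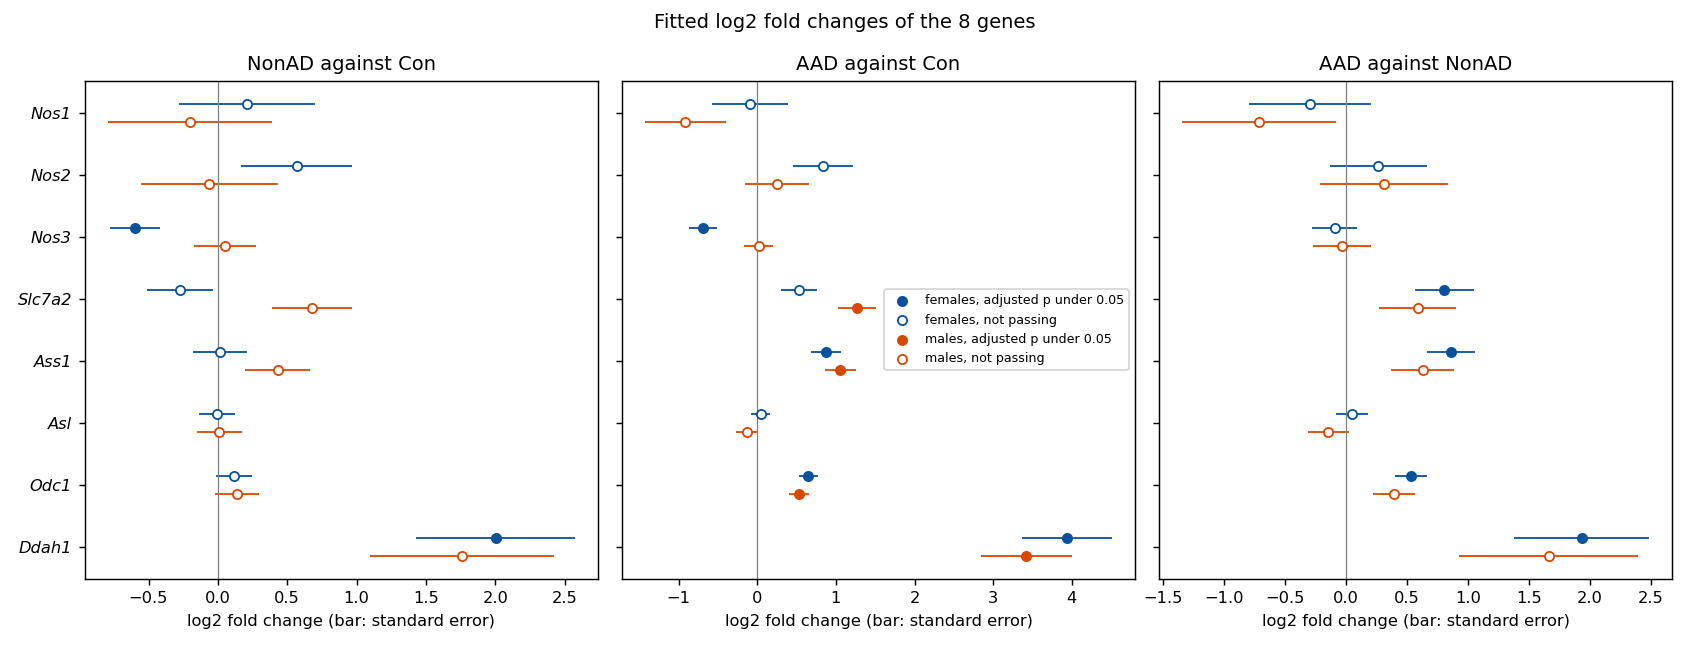
Log2 fold change of each member, with SE, for NonAD against Con, AAD against Con and AAD against NonAD; blue is females, orange is males and filled points have an adjusted p under 0.05. Ddah1 lies far to the right of the other members in AAD against Con in both sexes, and Asl lies near 0 in all 3 panels.

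None of the 3 nitric oxide synthases was a DEG in any of the 6 comparisons within a sex. Nos1, the neuronal synthase (chromosome 5), averaged 0.596 ± 0.347 CPM (SD) in FeCon, 0.688 ± 0.453 in FeNonAD and 0.559 ± 0.354 in FeAAD. Male means were 0.986 ± 0.880 CPM for MaCon, 0.861 ± 0.640 for MaNonAD and 0.522 ± 0.302 for MaAAD, and the ranges of all 6 groups overlapped. Its log2 fold change in AAD against Con was −0.09 (edgeR adjusted p = 0.897) in females and −0.91 (adjusted p = 0.163) in males. Nos2, the inducible synthase of stimulated macrophages (chromosome 11), had group means between 1.20 and 2.14 CPM. They were 1.20 ± 0.739 CPM in FeCon, 1.78 ± 1.16 in FeNonAD, 2.14 ± 1.23 in FeAAD, 1.73 ± 0.931 in MaCon, 1.66 ± 0.399 in MaNonAD and 2.06 ± 1.34 in MaAAD. The 4.796 CPM of FeAAD6 was the highest Nos2 level in FeAAD and 2.07 CPM was the level in FeAAD5, the library with the highest macrophage sum of its group. The log2 fold change of Nos2 was 0.83 (SE 0.39, edgeR adjusted p = 0.0746) in FeAAD and 0.25 (SE 0.40, adjusted p = 0.665) in MaAAD against Con, so a rise in females was not shown at the threshold used.

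Median sums of macrophage and neutrophil markers were higher in the lesioned groups than in the controls, but not always in the same libraries. Of 10 macrophage markers 9 were DEGs, higher, in AAD against Con in each sex and Mertk was lower, and of 7 neutrophil markers tested 7 were DEGs in females and 5 in males. FeAAD5 and MaAAD7 had the highest macrophage sums of their groups, 2547 and 2337 CPM, but FeAAD9 had a macrophage sum of 600.4 CPM, near the lowest of FeAAD (581). MaAAD1, with the lowest neutrophil sum of MaAAD (12.84 CPM), had a macrophage sum of 1142 CPM. Of 7 T and B cell markers, 3 were DEGs, higher, in FeAAD and 1 in MaAAD. Of 8 striated muscle markers tested, 4 were DEGs, lower, in FeAAD (median −1.50) and 0 in MaAAD by edgeR, where none had an unadjusted p under 0.05. Of all genes tested, 12.7% were DEGs in FeAAD and 11.4% in MaAAD against Con, and the male T and B cell count was near that share. The striated muscle sum was 39.83 to 649.3 CPM in FeCon, with the highest in FeCon10, and 16.19 to 101.9 CPM in FeAAD. The part of these cell types in the members' levels was not tested. The neutrophil sum was at most 35.43 CPM in the FeAAD libraries other than FeAAD5 and FeAAD9. With the 4 libraries left out together, the log2 fold change of Nos2 in FeAAD against FeCon was 0.89 (edgeR adjusted p = 0.0832).

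Nos3, the endothelial synthase (chromosome 5), was the synthase with the highest RNA and differed between female groups. FeCon had 38.4, 72.4 and 108 CPM as lowest, median and highest level, FeNonAD 32.5, 43.9 and 69.5 CPM, and FeAAD 23.0, 43.3 and 68.8 CPM. MaCon had 36.0, 49.6 and 63.9 CPM, the 4 MaNonAD libraries lay between 41.7 and 56.8 CPM, and MaAAD had 33.1, 50.9 and 65.9 CPM. The female groups overlapped, with 2 of 9 FeAAD and 1 of 8 FeNonAD libraries below every FeCon library, and the male groups lay over each other. Nos3 fell by 0.69 on the log2 scale (SE 0.17, edgeR adjusted p = 0.001182) in FeAAD and by 0.60 (SE 0.18, adjusted p = 0.0203) in FeNonAD against FeCon, and FeAAD and FeNonAD differed by −0.09 (adjusted p = 0.759). The FeNonAD difference missed the threshold without FeCon9 (adjusted p = 0.0566) or without FeNonAD6 (0.0564), the FeNonAD library with the highest neutrophil sum. In males the log2 fold change was 0.02 (SE 0.19, edgeR adjusted p = 0.949) in MaAAD against MaCon.

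Endothelial markers went both ways in FeAAD. Of 10 markers, Cdh5 and Tie1 were higher and Pecam1 lower by adjusted p in FeAAD against FeCon, where 44.4% of all genes passed. The median log2 fold change was 0.10 over the list and 0.00 over all genes tested. Their summed level was 650.5 to 1212 CPM in FeCon and 364.4 to 1112 CPM in FeAAD. In FeNonAD, where Nos3 was also lower, Pecam1 alone of the 10 passed against FeCon and was lower, where 14.5% of all genes passed. The median sum was 736.1 CPM against 892.8 in FeCon. The part of endothelial cells in the level of Nos3 was not tested. The lowest 2 sums of FeAAD were in FeAAD9 (364.4) and FeAAD5 (444.7), which also had the lowest Nos3, 26.95 and 23.01 CPM. With these and 2 other libraries left out, Nos3 was lower in FeAAD by a log2 fold change of −0.51 (edgeR adjusted p = 0.0144). FeCon9 had both the highest Nos3 (108.4 CPM) and the highest endothelial sum (1212 CPM) of the controls.

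**Figure D3:**
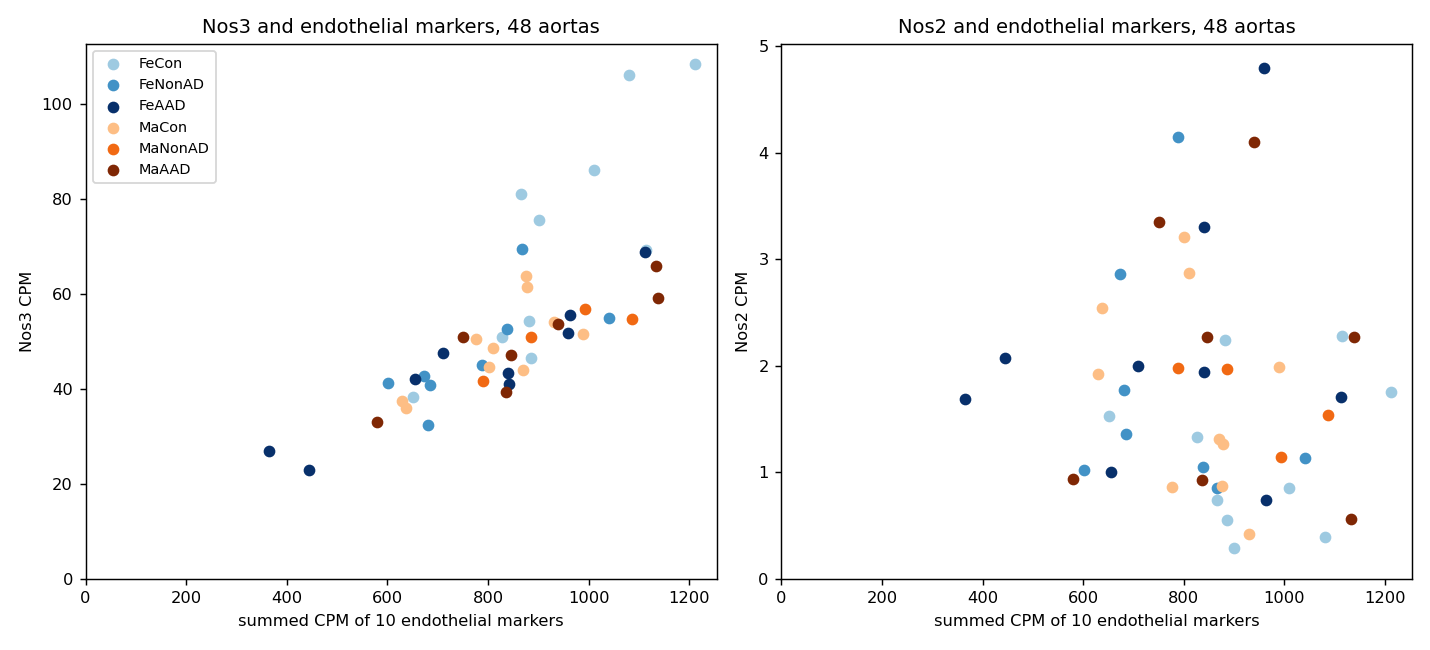
Nos3 (left) and Nos2 (right) in CPM against the summed CPM of 10 endothelial markers in the 48 aortas, 1 point per library, coloured by group. FeCon9 has the highest Nos3 and the highest endothelial sum, and FeAAD9 and FeAAD5 sit at the lower left with 26.95 and 23.01 CPM.

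Slc7a2 encodes CAT-2, a carrier that brings cationic amino acids such as arginine into the cell (chromosome 8). In males it separated the lesioned aortas from the controls, with 21.2, 26.2 and 33.2 CPM as lowest, median and highest level in MaCon and 41.8, 66.3 and 90.6 CPM in MaAAD. The MaNonAD libraries held 76.41, 33.23, 29.38 and 33.20 CPM, so 1 of the 4 lay within the MaAAD range, and 3 of the 4 lay above every MaCon library, MaNonAD2 and MaNonAD4 only just, since the highest MaCon library held 33.18 CPM. FeCon was far wider than MaCon, at 14.0, 50.3 and 78.1 CPM, and overlapped FeNonAD (26.7, 38.2 and 53.8 CPM) and FeAAD (37.8, 76.4 and 88.8 CPM). Slc7a2 rose by 1.27 (SE 0.24, edgeR adjusted p = 4.74e-05) in MaAAD against MaCon, with 7 of 7 libraries above every control. In FeAAD it was higher by 0.81 (SE 0.24, edgeR adjusted p = 0.0162) against FeNonAD, with 7 of 9 libraries above every FeNonAD library, and by 0.53 (SE 0.23, adjusted p = 0.0512) against FeCon. Over the fits that left out 1 female library the adjusted p of that last difference ran from 0.0211 to 0.1002 and it passed in 7 of 19. It also passed with DESeq2 (0.54) and with a replicate block (0.63).

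Ass1 and Asl are the consecutive enzymes that make arginine from citrulline, and only Ass1 passed the test in lesioned aortas. Ass1 (chromosome 2) had 11.9, 17.0 and 21.3 CPM as lowest, median and highest level in FeCon, 12.8, 17.5 and 19.2 CPM in FeNonAD and 21.2, 23.9 and 65.9 CPM in FeAAD. In males it had 11.1, 14.8 and 31.2 CPM in MaCon, 17.4 to 26.9 CPM in the 4 MaNonAD libraries and 23.5, 30.0 and 52.4 CPM in MaAAD. All 9 FeAAD libraries lay above every FeNonAD library and 8 of 9 above every FeCon library, while 3 of 7 MaAAD libraries lay above every MaCon library. Ass1 rose by 0.87 (SE 0.19, edgeR adjusted p = 0.0001726) in FeAAD and by 1.06 (SE 0.20, adjusted p = 3.456e-05) in MaAAD against Con, and by 0.86 (SE 0.20, adjusted p = 0.001746) in FeAAD against FeNonAD. With the 4 libraries left out, the female value was 0.66 (edgeR adjusted p = 0.00194) and the male value 1.02. Leaving out 1 library at a time, the male value ran from 0.96 to 1.22, so the DEG call was lost at the lower end. Asl (chromosome 5) had group means between 20.9 and 23.3 CPM, and its log2 fold change was 0.04 (SE 0.13, edgeR adjusted p = 0.816) in FeAAD and −0.14 (SE 0.13, adjusted p = 0.461) in MaAAD against Con. The difference between the responses of Ass1 and Asl was not tested.

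Odc1, ornithine decarboxylase and the first enzyme of polyamine synthesis (chromosome 12), had the highest RNA of the members per kilobase in every control group mean and rose modestly. FeCon had 80.7, 94.3 and 106 CPM as lowest, median and highest level, FeNonAD 73.6, 107 and 127 CPM, and FeAAD 96.5, 132 and 237.9 CPM. MaCon had 79.2, 95.3 and 134 CPM, the 4 MaNonAD libraries 102.8 to 112 CPM, and MaAAD 121, 127 and 201 CPM. The 3 highest libraries were FeAAD5 (237.9 CPM), FeAAD9 (226.5 CPM) and MaAAD7 (201.2 CPM), the same 3 that led in neutrophil markers, whose part in the level of Odc1 was not tested. Odc1 rose by 0.65 (SE 0.12, edgeR adjusted p = 3.387e-05) in FeAAD, with 7 of 9 libraries above every control, and by 0.53 (SE 0.13, adjusted p = 0.001356) in MaAAD, with 3 of 7. With the 4 libraries left out, the female difference was 0.41 (edgeR adjusted p = 0.000359). All 7 MaAAD libraries lay above every MaNonAD library, but the difference of 0.39 missed the threshold (edgeR adjusted p = 0.195) with 4 MaNonAD aortas.

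Ddah1, which breaks down the methylarginines that inhibit nitric oxide synthases (chromosome 3), was the member that separated lesioned from control aortas in both sexes. FeCon had 0.780, 1.18 and 2.08 CPM as lowest, median and highest level and FeAAD 2.61, 13.9 and 47.0 CPM, with no overlap. MaCon had 0.562, 1.36 and 2.36 CPM and MaAAD 7.75, 14.8 and 24.6 CPM, again with no overlap. The MaNonAD aortas held 9.22, 1.08, 5.00 and 2.81 CPM. FeNonAD had 0.682, 1.96 and 29.9 CPM, and apart from FeNonAD8 its highest level was 2.23 CPM, close to the top of the FeCon range. Ddah1 rose by 3.94 (SE 0.57, edgeR adjusted p = 3.546e-07) in FeAAD and by 3.42 (SE 0.58, adjusted p = 7.337e-06) in MaAAD against Con. Without the 4 libraries that stood apart, the female value was 4.14 (edgeR adjusted p = 8.942e-10) and the male value 3.47.

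The DEG call of Ddah1 in aortas without a lesion rested on 1 mouse. In FeNonAD against FeCon the log2 fold change was 2.00 (SE 0.57, edgeR adjusted p = 0.0141), and without FeNonAD8, which held 29.9 CPM and 73.3% of the group's sum, it was 0.30 (adjusted p = 0.724). FeNonAD8 also had the highest fibroblast sum of its group (22750 CPM, against 10180 as the lowest) although its aorta was classed as having no lesion. Without FeNonAD8 the difference between FeAAD and FeNonAD went from 1.94 (SE 0.55, edgeR adjusted p = 0.0111) to 3.64 (adjusted p = 8.97e-06), while with all libraries but only these groups in the fit the call was lost (adjusted p = 0.121). In males 3 of 4 MaNonAD libraries lay above every MaCon library, but the log2 fold change of 1.76 (SE 0.67, edgeR adjusted p = 0.237) missed the threshold, and it was 1.14 without MaNonAD1. It became a DEG with the 4 libraries left out (1.79, edgeR adjusted p = 0.0361) and with only these groups in the fit (1.77). None of those 4 is a MaNonAD or MaCon library, so the compared mice were the same.

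In each sex the lesioned aorta with the lowest Ddah1 had the lowest fibroblast marker sum, but only in FeAAD did the highest levels coincide. The 2 highest Ddah1 levels of FeAAD were 46.99 CPM in FeAAD7 and 45.56 CPM in FeAAD6, and these libraries had the highest fibroblast marker sums of the group, 27750 and 25880 CPM. FeAAD8, with the lowest Ddah1 (2.605 CPM), had the lowest fibroblast sum (13880 CPM). FeAAD5 and FeAAD9, the libraries with the highest neutrophil sums, held 13.55 and 5.438 CPM of Ddah1. In males MaAAD2 had the lowest Ddah1 (7.754 CPM) and the lowest fibroblast sum (14050 CPM) of its group. MaAAD3 had the highest fibroblast sum (26590 CPM) with 8.611 CPM of Ddah1, and MaAAD1, with the highest Ddah1 (24.59 CPM), had a sum of 19460 CPM. Over 7 fibroblast markers, Lum, Col1a1 and Col3a1 were DEGs, higher, in FeAAD against FeCon and Pi16 was lower by adjusted p, with a list median of −0.01. In MaAAD against MaCon the same 3 were DEGs, Pdgfra was also higher by adjusted p, none was lower and the median was 0.38. The sum, to which 2 collagen genes belong, was 8755 to 13060 CPM in FeCon and 13880 to 27750 in FeAAD, and 9503 to 12620 CPM in MaCon and 14050 to 26590 in MaAAD. The part of fibroblasts in the level of Ddah1 was not tested.

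**Figure D4:**
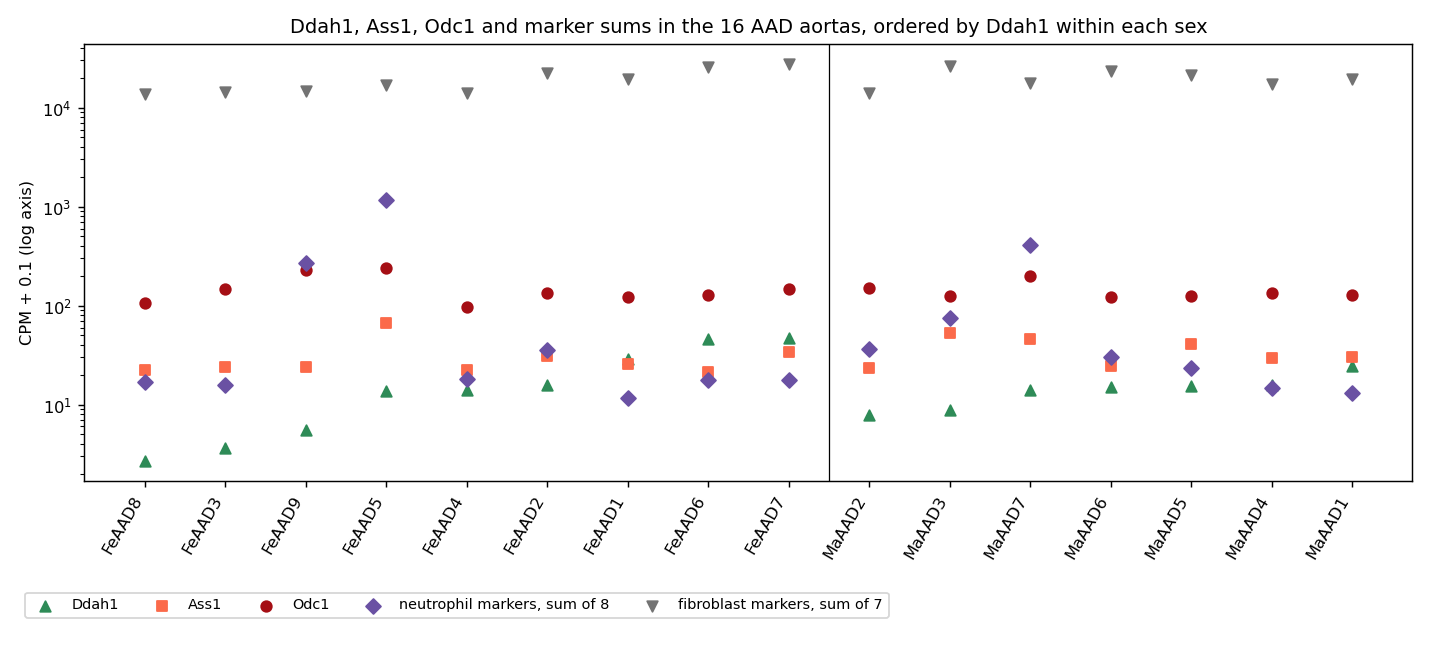
The 16 lesioned aortas ordered by Ddah1 within each sex, with Ddah1, Ass1, Odc1 and the summed neutrophil and fibroblast markers as CPM + 0.1 on a log axis, 1 point per library and measure. FeAAD5, FeAAD9 and MaAAD7 have the highest Odc1 and neutrophil sums, while Ddah1 is highest in FeAAD7 and FeAAD6.

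Males and females were compared within each condition and then in their responses. Between MaCon and FeCon, edgeR and DESeq2 each called 0 of 8 members as DEGs, where 1.51% of all genes were, and 2 members had an unadjusted p under 0.05. Both passed by adjusted p alone, where 14.3% of all genes did, and were lower in males, as were 7.9% of all genes: Nos3 by a log2 fold change of −0.54 (SE 0.17, edgeR adjusted p = 0.0255) and Slc7a2 by −0.82 (SE 0.22, adjusted p = 0.0114). FeCon9, FeCon7 and FeCon5, the 3 lowest FeCon libraries in Slc7a2 (13.99, 19.13 and 21.55 CPM), were among the 4 highest in Nos3, at 108.4, 81.0 and 86.14 CPM, and the other of those 4, FeCon10, held 64.07 CPM of Slc7a2. Between MaNonAD and FeNonAD and between MaAAD and FeAAD, edgeR and DESeq2 called 0 members and none had an unadjusted p under 0.05, with 0.0485% and 0.0693% of all genes called.

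No member's response was shown to differ between the sexes. In the AAD response edgeR and DESeq2 called 0 of 8 members, where 0.52% of all genes were called. By adjusted p alone 0 members passed there or in the NonAD response, where 1.34% and 0.416% of all genes did. In the AAD response Nos3 and Slc7a2 had an unadjusted p under 0.05. The log2 fold change of Nos3 was 0.71 higher in males than in females (edgeR unadjusted p = 0.00738, adjusted p = 0.141), and that of Slc7a2 was 0.73 higher (adjusted p = 0.270). In the NonAD response both tools called 0 members against 0.298% of all genes, and the same genes had an unadjusted p under 0.05, Nos3 with 0.65 (edgeR adjusted p = 0.319) and Slc7a2 with 0.95 (adjusted p = 0.255). In the step from NonAD to AAD both tools called 0 members, none had an unadjusted p under 0.05 and 0% of all genes were called. The fall of Nos3 past the threshold in females, and not in males, was thus not shown to be a difference between the sexes.

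Around the members, 69 further genes of arginine and nitric oxide chemistry were followed in 8 lists, and 62 were tested. By adjusted p, 14 were higher and 13 lower in FeAAD against FeCon, and 13 higher and 16 lower in MaAAD against MaCon, with medians of 0.00 and −0.08, where 44.4% and 35% of all genes passed. As DEGs, 4 were higher and 1 lower in females (12.7% of all genes were DEGs) and 4 higher and 2 lower in males (11.4% of all genes). Between FeNonAD and FeCon edgeR and DESeq2 called 0 of the 62 as DEGs, 20 had an unadjusted p under 0.05 and 9 passed by adjusted p, where 2.75% of all genes were DEGs and 14.5% passed. Between MaNonAD and MaCon 1 was a DEG, Hsp90aa1, a chaperone of Nos3, with −1.08 (edgeR adjusted p = 0.0498), where 0.478% of all genes were DEGs. That call was lost in 10 of 14 fits that left out 1 library, with no filter on low counts, with a replicate block and with only these groups in the fit.

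Of 11 targets of nitric oxide, 6 fell by adjusted p in FeAAD and 7 in MaAAD, where 20.6% and 16.1% of all genes did. Of these, Gucy1a1 and Gucy1b1 (subunits of soluble guanylate cyclase, the nitric oxide receptor), Prkg1 (the kinase activated by cGMP), Pde5a (which degrades cGMP), Mrvi1 and Kcnma1 (targets of that kinase) fell in both sexes and Vasp in males, while Pde1a rose in both. Gucy1b1 went from 258.8 ± 34.0 CPM (SD, n = 10) in MaCon to 127.1 ± 51.6 in MaAAD, a log2 fold change of −1.03 (SE 0.19, edgeR adjusted p = 2.426e-05), and in FeAAD it fell by 0.65. With the 4 libraries left out, the male value was −0.92 and no longer a DEG. Pde1a went from 17.9 ± 2.44 to 36.6 ± 7.68 CPM in males, a log2 fold change of 1.03 (SE 0.17, edgeR adjusted p = 7.084e-06). The list's median was −0.42 in FeAAD and −0.52 in MaAAD. Smooth muscle markers moved in the same direction, with 8 of 8 lower by adjusted p in each sex and medians of −1.01 and −0.98, and summed levels of 15500 to 35830 CPM in FeAAD and 13570 to 32870 in MaAAD. Their part in the fall of the nitric oxide targets was not tested.

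Gatm rose in both sexes, as did the enzymes Pycr1 and Aldh18a1 that lead from glutamate to proline. Gatm, which makes the creatine precursor from arginine, went from 1.82 ± 0.480 CPM in FeCon to 9.38 ± 4.38 in FeAAD, a log2 fold change of 2.36 (SE 0.23, edgeR adjusted p = 2.741e-10), and rose by 1.58 in MaAAD. Gamt, which completes creatine, was at 0.14 in FeAAD (edgeR adjusted p = 0.507) and −0.38 in MaAAD (adjusted p = 0.0763). Of the 3 genes tested in this list, 1 passed by adjusted p in FeAAD (Gatm) and 2 in MaAAD (Gatm and Azin2, higher). Of all genes, 44.4% and 35% passed there. Of 6 genes tested between ornithine, glutamate and proline, Pycr1 and Aldh18a1, which make proline, rose in both sexes, Prodh, which degrades it, fell in females and Oat, ornithine aminotransferase, fell in males. These are 3 of 6 in each sex, where 44.4% and 35% of all genes passed. Pycr1 rose by 1.17 (SE 0.13, edgeR adjusted p = 1.118e-09) and Aldh18a1 by 1.09 (SE 0.14, adjusted p = 1.665e-08) in FeAAD, and by 0.68 and 0.62 in MaAAD. Prodh fell by 1.12 (SE 0.30, edgeR adjusted p = 0.002182) in FeAAD. With the 4 libraries left out, Aldh18a1 was at 0.93 and Prodh at −0.94, so that neither was a DEG though both passed by adjusted p. In FeNonAD against FeCon, Gatm, Pycr1 and Aldh18a1 were higher by adjusted p, by 0.98, 0.72 and 0.53, and Prodh was lower (−0.96), where 14.5% of all genes passed. Those 3 genes were also higher in MaCon than in FeCon by adjusted p, by 0.64, 0.53 and 0.39.

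Tetrahydrobiopterin is the cofactor that nitric oxide synthases need, and Gch1, the first enzyme of its synthesis, rose in both sexes. It went from 2.99 ± 0.411 to 6.68 ± 1.84 CPM in males, a log2 fold change of 1.16 (SE 0.20, edgeR adjusted p = 1.015e-05), and rose by 0.68 in FeAAD. Of 5 such genes tested, Gch1 and Pcbd1, which recycles the used cofactor, were higher in FeAAD, and Gch1 was higher and Spr lower in MaAAD. These counts by adjusted p were near the 44.4% and 35% of all genes that passed. Among 11 regulators, 4 passed by adjusted p in FeAAD and 5 in MaAAD, near the 44.4% and 35% of all genes. Nostrin, which moves Nos3 away from the membrane, rose in both sexes (1.31, SE 0.29, edgeR adjusted p = 0.0004302 in males). Cav1, an inhibitory partner of Nos3, fell in both, and Hsp90aa1 fell by 1.15 (SE 0.22, edgeR adjusted p = 6.28e-05) in males, from 617 ± 199 to 277.6 ± 77.4 CPM. The other calls were Nosip and Klf4, lower in FeAAD, and Irf1, higher, and Dynll1, lower, in MaAAD.

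**Figure D5:**
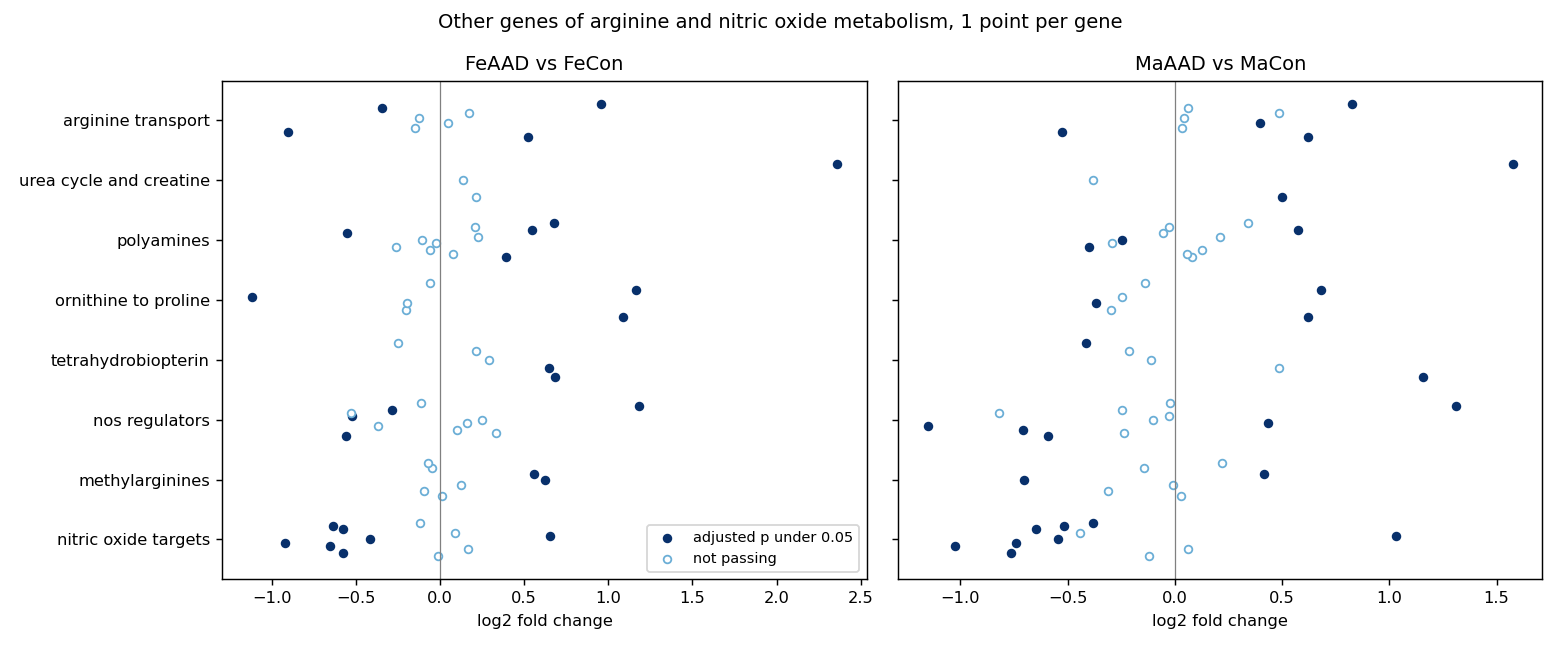
Log2 fold change of each tested gene in the 8 pathway lists for FeAAD against FeCon (left) and MaAAD against MaCon (right); filled points have an adjusted p under 0.05. The nitric oxide targets lie mostly left of 0, with medians of −0.42 and −0.52, and Gatm at 2.36 is the rightmost point in females.

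In the transport, polyamine and methylarginine lists none was a DEG in AAD against Con. By adjusted p 4 of 8, 4 of 11 and 2 of 7 passed in FeAAD and 4 of 8, 3 of 11 and 2 of 7 in MaAAD, where 44.4% and 35% of all genes did. Of 8 further transport genes, Slc7a7, a carrier of cationic amino acids, and Slc25a15, the mitochondrial ornithine carrier, were higher and Slc25a29 lower by adjusted p in both sexes, with Slc7a6 lower in females and Slc3a2 higher in males. Of 11 polyamine genes, Smox, spermine oxidase, was higher in both sexes, with Amd1, which makes the aminopropyl donor, and Srm, which uses the product of Odc1, higher and Sat1 lower in females, and Oaz2 and Dohh lower in males. Of 7 methylarginine genes tested, Prmt3 was higher in both sexes, and Prmt2, a protein arginine methyltransferase, was higher in FeAAD and lower in MaAAD. All of these are levels of RNA, and no metabolite was used here.

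For each member, the genes with the most similar profile over the 48 libraries were found by Pearson's r of log2(CPM + 1) among 13702 genes, as a description that also carries what the libraries share. Nos3 was nearest to Fgfr3 (0.865), Gata2 (0.826) and Pecam1 (0.821), and Nos2 to Ushbp1 (0.788), Robo4 (0.787) and Slc28a2 (0.768). Robo4 is a receptor of endothelial cells, and it was also 1 of the 10 endothelial markers. Ddah1 was nearest to Col11a1 (0.956), a fibrillar collagen, P4ha3 (0.939), a collagen prolyl hydroxylase, and Cemip (0.934), and Slc7a2 to Fgf7 (0.823), Fmnl3 (0.814) and Tnfrsf11b (0.809). Ass1 was nearest to Capg (0.907), Dnase2a (0.903) and Cndp2 (0.891), Odc1 to Fkbp11 (0.906), Mcfd2 (0.906) and Plaur (0.900), and Asl to Exosc5 (0.877), Tmem134 (0.866) and Urod (0.864). Nos1 had no close neighbour, with Etfdh at 0.644, Pck1 at 0.642 and Acsm3 at 0.641.

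Among lesioned aortas, 3 relations were computed in each sex with exact two-sided permutation p-values, and none passed after Benjamini-Hochberg adjustment over a family of 12 relations. Nos3 against the mean of the endothelial markers in FeAAD had r = 0.771 (n = 9, exact permutation p = 0.0158, adjusted 0.139) and rho = 0.683 (p = 0.0503, adjusted 0.265), and without FeAAD5 and FeAAD9 r was 0.333. In MaAAD the same pair had r = 0.727 (n = 7, exact permutation p = 0.0641, adjusted 0.256) and rho = 0.750 (p = 0.0663, adjusted 0.265), and without MaAAD2 and MaAAD7 r was 0.533. Nos2 against the macrophage markers had r = 0.182 (n = 9, exact permutation p = 0.625, adjusted 0.842) in FeAAD and −0.148 (n = 7, p = 0.775, adjusted 0.893) in MaAAD, with rho of 0.367 (exact permutation p = 0.336, adjusted 0.707) and −0.036 (exact permutation p = 0.9635, adjusted 0.9635). Nos2 against Ass1, which remakes its substrate, had r = −0.169 (n = 9, exact permutation p = 0.621, adjusted 0.842) in FeAAD and 0.328 (n = 7, p = 0.449, adjusted 0.842) in MaAAD, with rho of −0.233 (exact permutation p = 0.552, adjusted 0.741) and 0.429 (exact permutation p = 0.354, adjusted 0.707).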

How the data were processed

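The series holds bulk RNA-seq of 48 thoracic aortas, 1 library per mouse, in 6 groups taken from the labels. Nothing in the labels gives cages or extraction batches, and mice shared cages. RNA was extracted with a column kit, and strand-specific libraries were sequenced on a DNA NanoBall platform. The authors deposited expected counts per gene, not scaled to library size, and the submitters' processing notes name Bowtie2, RSEM 1.3.1 and build GRCm39. Of the deposited values 4.99% were not whole, and all were rounded. The members' values were whole in every library. Library totals were 13548003 to 17281262 counts. No molecular identifiers were used, so counts are reads and not molecules.

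Genes were tested in edgeR 4.0.16 (R 4.3.3) by the robust quasi-likelihood test after filterByExpr (minimum count 10, minimum total 15), which kept 14431 of 18782 genes, with TMM factors of 0.874 to 1.08 and a mean for each of the 6 groups over all 48 libraries. Differences between the sexes in a response were interaction contrasts. Each SE is the size of the log2 fold change over the root of its F statistic, an approximation. Exon lengths and chromosomes came from GENCODE M21 (GRCm38), matched by symbol for all 8 members described, and promoters from RefSeq GRCm38.p6, so no coordinate of the deposited build is given. Correlations used Python 3.11.15 with scipy 1.17.1. The scripts were tested on simulated data.

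The members, pathway lists and marker lists were chosen with earlier results of these data known. Named pathway genes were, in each list, up to 3 DEGs with the largest absolute log2 fold change in the 6 comparisons within a sex, at a mean of at least 10 counts. Prmt2, Sat1, Dynll1 and genes given only by direction were named after their values were seen. For each member the 3 genes with the highest r were named. Further, 2 genes of the set, 1 pathway gene and the relations that need them are not reported here.

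Alternatives were DESeq2 1.42.0, DESeq2's size factors, no filter on low counts, no robust estimation, a replicate block, only the compared groups, adjusted p alone, each library left out, and 4 libraries left out together (added after seeing the data, as were the alternatives for the named pathway genes).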

Additional observations from a re-analysis of the deposited data

Results flagged for a closer look

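A library far from the rest of its group was found in 3 of 48 combinations of member and group, by Dixon's ratio on log2(CPM + 1), where chance gives about 1 in 20. Ddah1 was at 29.9 CPM in FeNonAD8 and at 0.682 to 2.23 CPM in the other FeNonAD aortas. FeNonAD8 was classed as having no lesion, and its level of Ddah1 lay within the FeAAD range of 2.61 to 47.0 CPM. Slc7a2 was at 76.4 CPM in MaNonAD1 and at 29.4 to 33.2 CPM in the other MaNonAD aortas. MaNonAD1 also had the highest Ddah1 of its group, 9.22 CPM. Ass1 was at 65.9 CPM in FeAAD5 and at 21.2 to 33.8 CPM in the other FeAAD aortas.

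Among the pathway genes, 3 had responses to BAPN that differed between males and females by edgeR's interaction test at adjusted p alone, 2 for NonAD and 3 for AAD of 62 tested, where 0.416% and 1.34% of all genes passed. Of the 3, Prmt2 also met the fold threshold and was a DEG in each response, and Sat1 and Dynll1 did not meet it. Prmt2, a protein arginine methyltransferase, was at 35.0 ± 6.17 CPM (SD, n = 10) in MaCon, 23.2 ± 3.23 in MaNonAD and 21.5 ± 2.88 in MaAAD, against 17.0 ± 5.63 in FeCon, 28.3 ± 3.38 in FeNonAD and 26.1 ± 4.80 in FeAAD. The male minus female difference in its log2 fold change was −1.33 (SE 0.22, edgeR adjusted p = 0.002235) for NonAD and −1.32 (SE 0.19, adjusted p = 0.000248) for AAD. The controls of the sexes themselves differed in Prmt2, by 1.04 (SE 0.13, edgeR adjusted p = 3.256e-07) in males against females, and by adjusted p it was lower in MaAAD and higher in FeAAD and FeNonAD than in the controls of that sex. Sat1, which acetylates spermidine and spermine, differed by 0.63 (SE 0.15, edgeR adjusted p = 0.0327) for NonAD and 0.50 (SE 0.13, adjusted p = 0.0423) for AAD, with 277.7 ± 43.1 CPM in FeCon, 190.1 ± 28.0 in MaCon and means of 158.0 to 188.9 in the BAPN groups. Leaving out 1 library at a time, the call was lost in 8 of 32 fits for NonAD and in 12 of 36 for AAD. Dynll1, a dynein light chain that binds Nos1, differed by −0.80 (SE 0.19, edgeR adjusted p = 0.0227) for AAD, with 306.4 ± 54.5 CPM in MaCon, 187.6 ± 25.6 in MaAAD, 206.4 ± 50.9 in FeCon and 220.8 ± 57.4 in FeAAD.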

How the results depend on the processing

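The DEG counts of the members in MaAAD against MaCon stayed within 1.5 times under every alternative run. By adjusted p alone, without the fold threshold, 2, 4, 4 and 2 members passed in FeNonAD against FeCon, FeAAD against FeCon, FeAAD against FeNonAD and MaCon against FeCon, and 9, 27, 29 and 17 pathway genes in FeNonAD against FeCon, FeAAD against FeCon, MaAAD against MaCon and FeAAD against FeNonAD. In MaAAD against MaNonAD, DESeq2 called 1 pathway gene. With no filter 0 pathway genes were called in MaNonAD against MaCon.

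Replicate numbers did not pair the mice: the mean correlation of deviations from the group means ran from −0.0661 to 0.16 and no comparison had every pair above 0.1. With the replicate block 0 members and 1 pathway gene were called in FeNonAD against FeCon and 0 pathway genes in MaNonAD against MaCon. The signs of Asl in FeNonAD against FeCon (0.0159) and Nos3 in MaAAD against MaNonAD (0.0068) turned, both far from the threshold. Slc7a2 in FeAAD against FeCon passed with the block (0.63) and with DESeq2 (0.54). With only the 2 compared groups in the fit, which leaves fewer samples, 1 member (Ddah1) was called in MaNonAD against MaCon and 0 members in FeAAD against FeNonAD, where Ddah1 kept a log2 fold change of 1.94 with an adjusted p of 0.121, and 0 pathway genes in MaNonAD against MaCon.

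Without the 4 libraries, 0 members were called in FeNonAD against FeCon and 1 in MaNonAD against MaCon (Ddah1, 1.79), and 3 pathway genes in FeAAD against FeCon, with Aldh18a1 and Prodh lost. Small values changed sign: Ass1 (−0.0206) and Asl (0.0137) in FeNonAD against FeCon, Nos1 in FeAAD against FeCon (0.16), Nos3 (0.0567) and Asl (−0.0010) in FeAAD against FeNonAD and Nos3 in MaAAD against MaNonAD (0.0572). Correlations that changed sign were Nos2 with Ass1 in MaAAD (−0.500) and Nos2 with macrophage markers in FeAAD (−0.163), both without the 2 libraries farthest from the median of Nos2.

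Leaving out 1 library at a time, members called ran from 0 to 1 in FeNonAD against FeCon, where the 0 came without FeNonAD8. In MaAAD against MaCon they ran from 2 to 3, where the 2 came without MaAAD3 or MaAAD7, with Ass1 lost. Pathway genes ran from 1 to 4 in FeAAD against FeNonAD, 0 to 2 in FeNonAD against FeCon, 0 to 1 in MaAAD against MaNonAD and 0 to 1 in MaNonAD against MaCon, where Hsp90aa1 was lost in 10 of 14 fits. Signs turned in differences that did not pass. Asl ran from −0.0178 to 0.095 in FeAAD against FeCon, −0.0115 to 0.0866 in FeAAD against FeNonAD, −0.0327 to 0.0427 in FeNonAD against FeCon and −0.0739 to 0.15 in MaNonAD against MaCon, and Ass1 from −0.0315 to 0.0621 in FeNonAD against FeCon. Nos1 ran from −0.29 to 0.15, −0.50 to 0.0047, −0.0942 to 0.44 and −0.63 to 0.18 in FeAAD against FeCon, FeAAD against FeNonAD, FeNonAD against FeCon and MaNonAD against MaCon. Nos2 ran from −0.16 to 0.11 in MaNonAD against MaCon, and Nos3 from −0.19 to 0.0101 in FeAAD against FeNonAD, −0.0597 to 0.0991 in MaAAD against MaCon and −0.12 to 0.0468 in MaAAD against MaNonAD. Nos2 in FeAAD against FeCon passed without FeCon6, FeCon8 or FeAAD3, with adjusted p from 0.0404 to 0.225. Where calls changed, the cause was not tested. Depth limits Nos1, Nos2 and Ddah1 in the controls, with group means of at most 1.73 CPM there, and 4 MaNonAD mice limit every male comparison with that group.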
